A study of Macaca fascicularis with 12 samples.

Results

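MATK, CSK, SRC, FGR, LYN, FYN and BTK are protein tyrosine kinases. Their transcripts were followed in the iliac arteries of 12 female monkeys of the species Macaca fascicularis, the cynomolgus monkey, whose plaques differed in size. The 7 genes were found by their symbol in the platform annotation, and 12 of the 53877 tested probes carried one of them as its only symbol. In all, 18160 distinct symbols were measured by such probes. MATK was chosen by its measured values, which were high in the arteries with medium and large plaques. Its values are therefore given as a description with no test. CSK, its closest relative, the kinases of the Src family and BTK were set beside it by kinship, with earlier results of these data known, and their adjusted p-values come from fits across all probes.

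Each animal gave 1 artery, hybridized to 1 array, so replicates are separate animals. All were over 20 years old, had eaten a high fat diet during 8 years, had been without ovaries for 4 years and received no other treatment. The submitters grouped the arteries by plaque area into small (4 animals, 0 to 0.113 mm2, of which 2 had no plaque), medium (5 animals, 0.30 to 0.542 mm2) and large (3 animals, from 0.61 up to 1.003 mm2). The groups describe the size of the plaque in whole arterial tissue, not isolated plaque, and no group was free of the diet. The arrays carried human probes, so the mismatch of a probe to the monkey transcript could lower its signal. Differences are therefore read between arteries for 1 probe. Where a probe is called dim or bright, or probes are summed, the level also depends on this mismatch. Such sums weigh the brightest probes most.

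CSK and MATK, which is also known as the CSK-homologous kinase, phosphorylate a tyrosine in the tail of Src family kinases, which folds these enzymes into their inactive form. CSK is made in nearly all cells, and MATK mainly in blood cells and in the brain, as known from human and mouse. Among the targets, SRC and FYN occur widely, whereas FGR and LYN belong to blood cells, FGR above all to myeloid cells. There they pass on signals from Fc receptors, integrins and cytokine receptors. BTK, of the neighbouring Tec family, is switched on by Src family kinases in B cells and myeloid cells. In bulk tissue, fewer cells of a type and less RNA per cell cannot be told apart.

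MATK was well below the median probe in arteries with small plaque and above it in all others. The deposited intensity, scaled so that the median probe of each array is close to 1, was 0.389, 0.330, 0.0986 and 0.0538 in small replicates 1 to 4. It was 13.5, 5.28, 3.16, 7.93 and 4.35 in medium replicates 1 to 5. In large replicates 1 to 3 it was 12.1, 9.87 and 14.5. Small replicates 3 and 4 lay under the lowest intensity used, 0.111, and were set to it before taking log2. The lowest medium artery was thus above every small artery, and the 3 large arteries lay within or just above the range of the medium ones.

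On the log2 scale MATK averaged -2.33 ± 0.98 in small (SD, n = 4), 2.59 ± 0.81 in medium (SD, n = 5) and 3.59 ± 0.28 in large arteries (SD, n = 3). The difference of large from small arteries was 5.91 ± 0.54 log2 units (SE), or 60.3-fold, and that of medium from small was 4.91 ± 0.47, or 30.1-fold. The sizes depend on the lowest intensity used, to which 2 of the 4 small arteries were set. On the linear scale the mean intensity was 12.2 in large and 6.85 in medium arteries, against 0.218 in small ones. The log2 differences were 3.43 and 2.56 on a log2(intensity + 1) scale, which shrinks differences at low intensity. Large and medium arteries differed by 1.00 ± 0.52, and their ranges overlapped, because medium replicate 1 at 3.76 exceeded large replicates 1 and 2 at 3.60 and 3.30. The order of the group means was small, medium, large, and the neighbours medium and large did not separate beyond their spread.

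**Figure D1:**
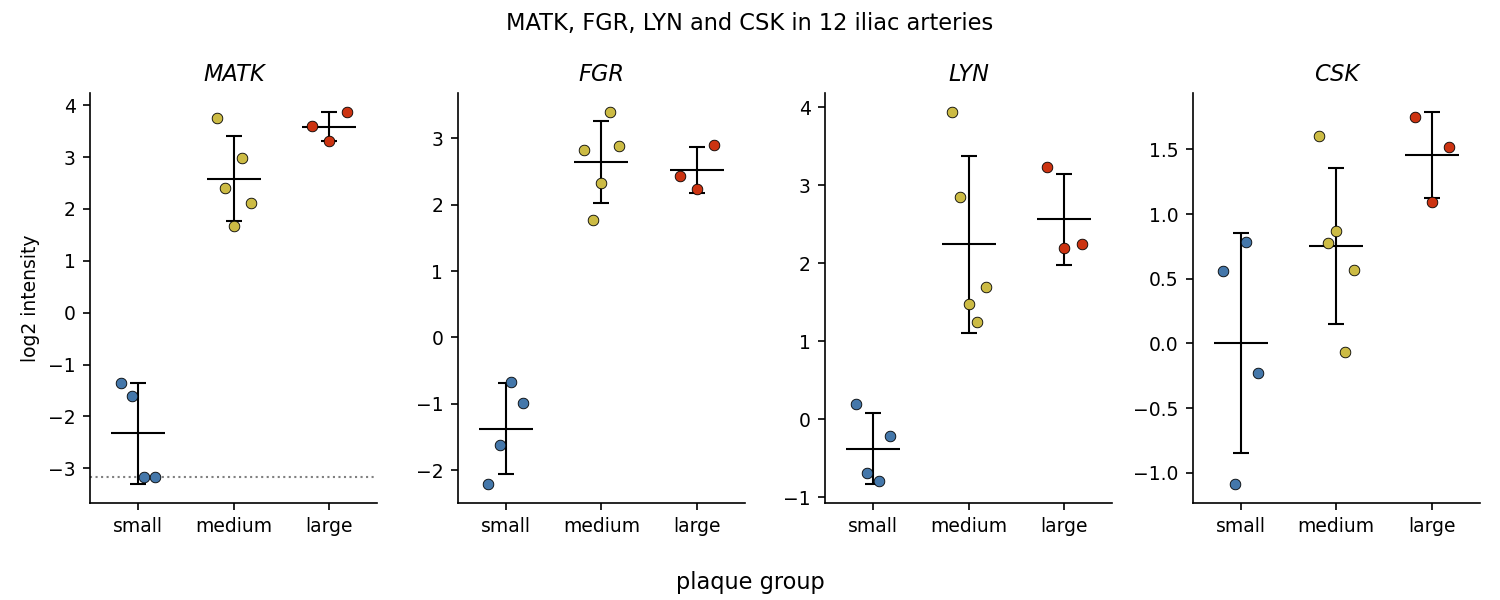
Log2 intensity of MATK, FGR, LYN and CSK in each artery, by plaque group; points are animals, long bars the group mean, whiskers the SD, and the dotted line in the MATK panel the lowest intensity used. For MATK, FGR and LYN every medium and large artery lies above every small one, while for CSK medium and small arteries overlap.

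CSK, the other kinase that restrains the Src family, showed smaller differences than MATK. That contrast was partly set by the choice of MATK for its high values. The log2 intensity of CSK was 0.56, -1.09, 0.78 and -0.23 in small replicates 1 to 4. In medium replicates 1 to 5 it was 1.61, 0.78, 0.87, -0.07 and 0.57, and in large replicates 1 to 3 it was 1.75, 1.09 and 1.52. The large arteries all lay above the small ones, whereas the medium arteries overlapped both groups. The difference of large from small arteries was 1.45 ± 0.45 log2 units (SE; limma adjusted p = 0.14), and that of medium from small was 0.75 ± 0.39 (limma adjusted p = 0.346). Neither passed the threshold of 0.05, and the first passed under 1 of 22 other settings, with array weights, at an adjusted p of 0.0457.

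FGR, a Src family kinase of myeloid cells, rose in both groups with established plaque. Its log2 intensity was -2.21, -1.62, -0.67 and -0.99 in small replicates 1 to 4. It reached 2.82, 1.77, 2.33, 3.40 and 2.88 in medium replicates 1 to 5 and 2.44, 2.23 and 2.90 in large replicates 1 to 3. No artery of the other groups came within 2 log2 units of the highest small artery. FGR was higher in large than in small arteries by 3.90 ± 0.41 (SE; limma adjusted p = 0.00119), or 14.9-fold. It was higher in medium than in small arteries by 4.01 ± 0.36 (limma adjusted p = 3e-04), or 16.2-fold. Both calls held under all 22 other settings, with adjusted p-values up to 0.0135 for large and 0.00551 for medium.

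LYN, a Src family kinase of myeloid and B cells that serves both activating and inhibitory receptors, rose as well but with more spread. Its log2 intensity was 0.20, -0.69, -0.79 and -0.22 in small replicates 1 to 4. In medium replicates 1 to 5 it was 3.94, 2.85, 1.48, 1.25 and 1.70, and in large replicates 1 to 3 it was 3.24, 2.20 and 2.25. Medium replicate 1 was the highest of all arteries, and medium replicate 4, the highest for FGR, was the lowest medium artery for LYN. LYN was higher in large than in small arteries by 2.94 ± 0.57 (SE; limma adjusted p = 0.033), or 7.66-fold. It was higher in medium than in small arteries by 2.62 ± 0.50 (limma adjusted p = 0.0168), or 6.13-fold. The first call was lost under 8 of 22 other settings, including without large replicate 1, 2 or 3 (adjusted p 0.166, 0.0539 and 0.107) or small replicate 2, 3 or 4 (adjusted p 0.0907, 0.0701 and 0.057), where the difference stayed between 2.60 and 3.12. The second was lost without small replicate 2, at an adjusted p of 0.0528, and when the 2 animals with identity numbers unlike the rest were left out, at 0.0551.

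SRC, the founding member of the family, showed no called difference on either of its probes, both annotated through expressed sequence tags and not through a curated mRNA. The brighter probe read 4.47, 4.45, 5.17 and 4.18 in small replicates 1 to 4, 4.29, 4.28, 4.73, 4.85 and 4.46 in medium replicates 1 to 5, and 4.31, 4.15 and 4.55 in large replicates 1 to 3. All 3 groups overlapped. Large arteries differed from small ones by -0.23 ± 0.24 (SE; limma adjusted p = 0.696) and medium from small by -0.04 ± 0.21 (limma adjusted p = 0.942). The dimmer probe differed by -0.56 ± 0.31 and -0.55 ± 0.27, again short of the threshold, and without small replicate 3, which read 2.57 where the other small arteries read 1.10 to 1.38, by -0.23 in each comparison.

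FYN, a widely made family member that also acts at the T cell receptor, was followed by 4 probes. The brightest, annotated by its curated mRNAs, read 4.89, 4.48, 4.09 and 3.95 in small replicates 1 to 4. It read 4.26, 4.59, 4.96, 4.51 and 4.93 in medium replicates 1 to 5 and 5.29, 4.05 and 4.66 in large replicates 1 to 3. The groups overlapped, with differences of 0.31 ± 0.31 for large minus small and 0.29 ± 0.27 for medium minus small (SE; limma adjusted p = 0.669 and 0.617). On the other 3 probes the differences of either group from small ran from -0.47 to 0.35. The signs disagreed between probes, and the lowest limma adjusted p was 0.371.

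BTK showed no called difference on either probe. The brighter probe, annotated through an expressed sequence tag, read 2.55, 2.44, 3.49 and 1.93 in small replicates 1 to 4. It read 1.88, 2.36, 2.37, 2.33 and 2.19 in medium replicates 1 to 5 and 2.14, 2.24 and 1.95 in large replicates 1 to 3. Large minus small was -0.49 ± 0.30 and medium minus small -0.38 ± 0.26 (SE; limma adjusted p = 0.454 and 0.486). The probe annotated by the BTK mRNA was dim, with log2 intensities from -1.85 to -0.38 over all 12 arteries. It differed by -0.50 ± 0.35 in large and 0.17 ± 0.31 in medium arteries relative to small ones (limma adjusted p = 0.527 and 0.821).

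**Figure D2:**
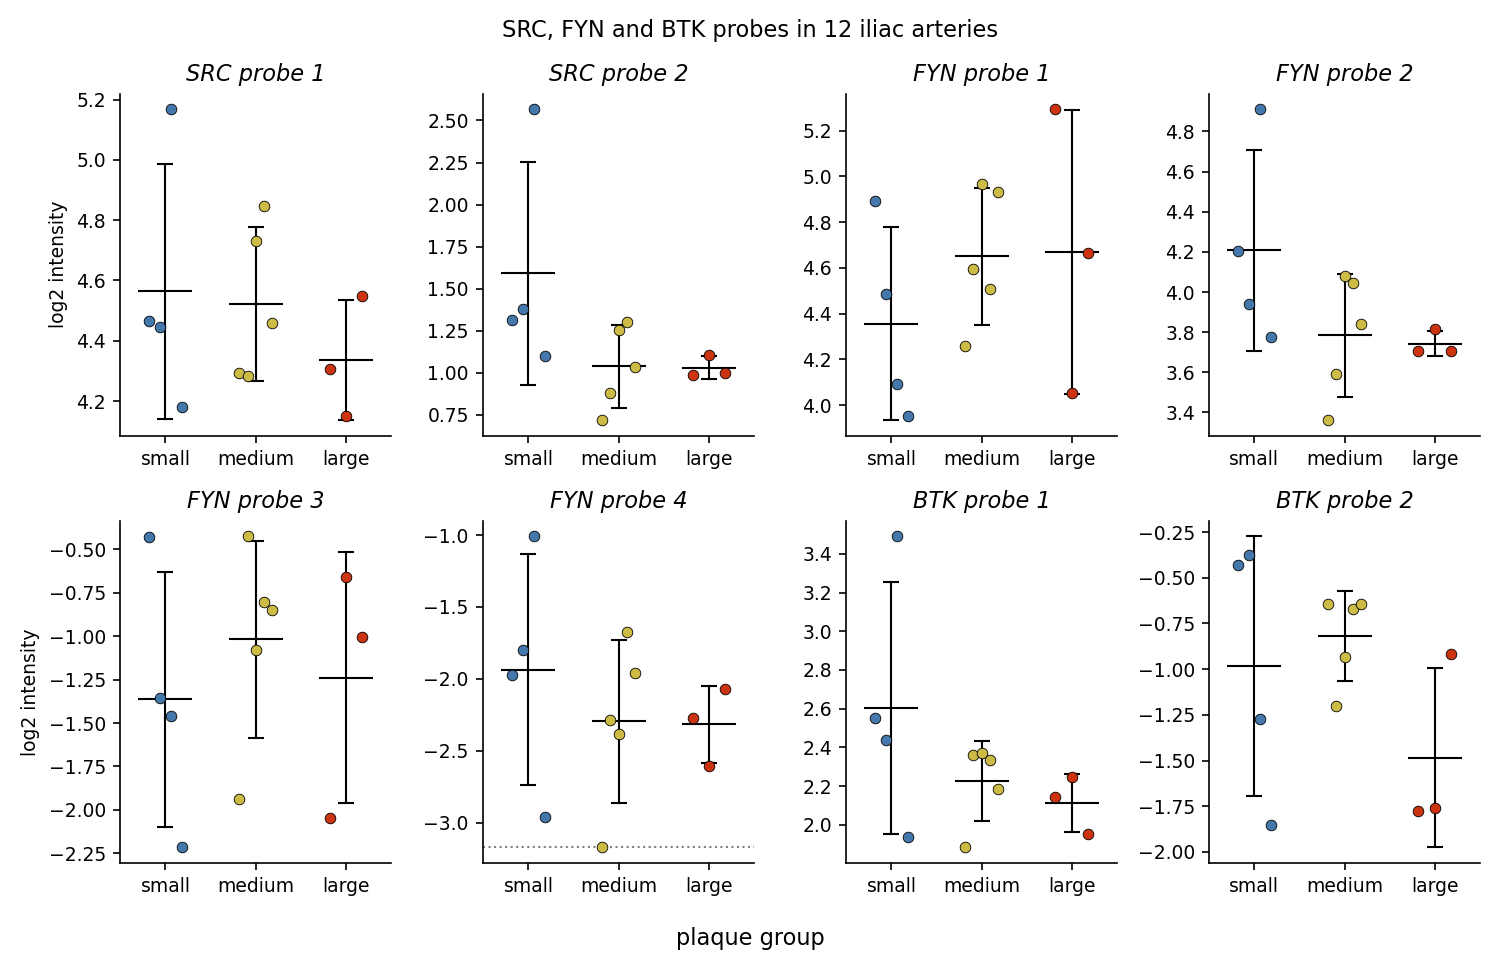
Log2 intensity of the SRC, FYN and BTK probes, numbered from the brightest down, in each artery by plaque group; points are animals, long bars the group mean and whiskers the SD, with the lowest intensity used dotted where values come near it. The 3 groups overlap on all 8 probes, and panels have their own vertical scale.

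Counted over the 6 relatives of MATK, 2 of 11 probes were called in large against small arteries, FGR and LYN, both higher. The share over all tested probes was 1.15%. The same 2 probes were called in medium against small arteries, where the share over all tested probes was 3.14%. Of the same 11 probes, 3 had large arteries all above small ones (CSK, FGR and LYN) against 5.99% of all probes. Medium arteries lay all above small ones on 2 of 11 (FGR and LYN) against 3.94%. MATK separated in both as well, but it was chosen for its high values in these groups and is not counted. These comparisons share the small arteries and the genes were picked with results in view, so the counts describe these kinases and carry no test of their own. All tested probes had a median difference of -0.10 in large and -0.09 in medium arteries relative to small ones.

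**Figure D3:**
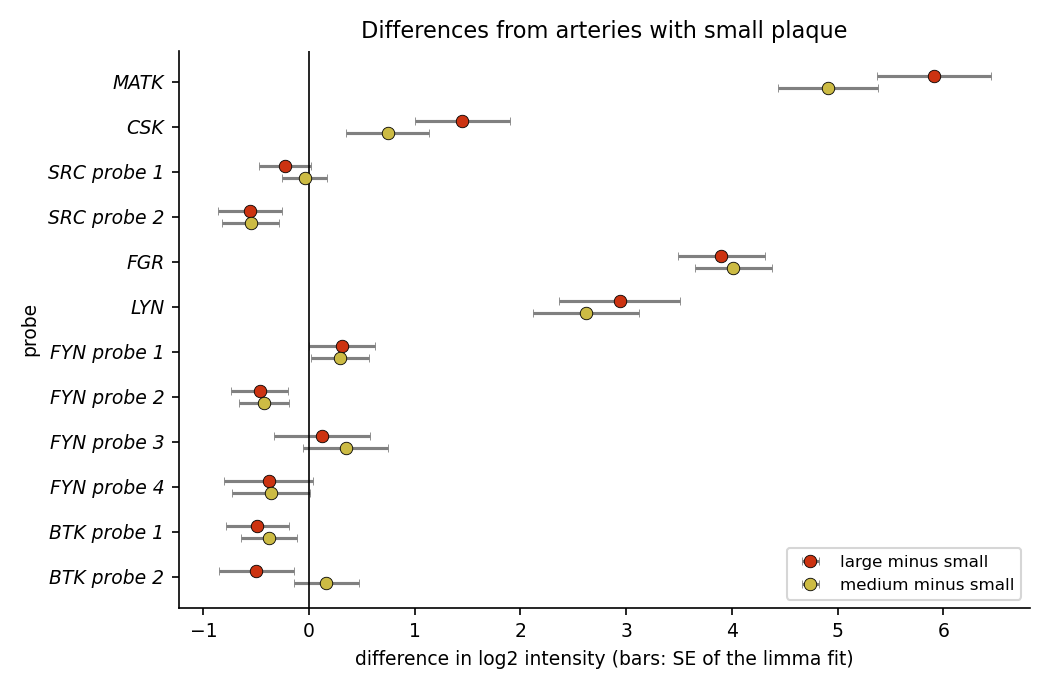
Difference in log2 intensity of large (red) and medium (yellow) arteries from small ones for all 12 probes; bars are the SE of the limma fit. MATK at 5.91 and 4.91, FGR at 3.90 and 4.01 and LYN at 2.94 and 2.62 stand to the right, and the SRC, FYN and BTK probes lie between -0.56 and 0.35.

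Large and medium arteries were then compared directly, to see whether any of these kinases differed further with plaque size. CSK differed by 0.70 ± 0.43, LYN by 0.32 ± 0.55 and FGR by -0.12 ± 0.39 (SE; limma adjusted p = 0.962, 0.97 and 0.983). The other relatives differed by -0.67 to 0.02, and every kinase had overlapping ranges in the 2 groups. No relative passed, and over all probes the share called by limma was 0.0%. An unadjusted p under 0.05 was reached by 2713 of 53877 probes, close to the share that would reach it with no differences.

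Slopes on plaque area, from which the groups were formed, placed the kinases in the same order. They are therefore not separate evidence, and MATK, chosen for its high values, came first in both. Over 12 arteries the slope was 7.18 ± 1.13 log2 units per mm2 for MATK (SE), 4.92 ± 1.02 for FGR (limma adjusted p = 0.0516), 3.54 ± 0.86 for LYN (limma adjusted p = 0.075) and 1.75 ± 0.51 for CSK (limma adjusted p = 0.122). The SRC, FYN and BTK probes had slopes from -0.66 to 0.62. No relative passed the threshold, and 0.583% of all probes did. FGR passed without large replicate 1 (slope 6.34, adjusted p 0.0312), and FGR and LYN passed without medium replicate 1 (adjusted p 0.0386 and 0.0263). With the square root of area in its place, the slopes of FGR, LYN and CSK passed at adjusted p-values of 0.00601, 0.0183 and 0.0498.

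Among the 8 medium and large arteries alone the slopes were smaller, at 2.22 ± 0.91 log2 units per mm2 for MATK (SE) and 1.36 ± 0.77 for CSK (limma adjusted p = 0.964). FGR had 0.54 ± 0.74 and LYN 0.60 ± 1.31, and both signs depended on 1 artery. Without medium replicate 2 the FGR slope was -0.18, and without large replicate 1 it was 1.43. The LYN slope was -0.87 without large replicate 1 and 1.29 without medium replicate 2. In order of area from 0.30 to 1.003 mm2, MATK read 2.40, 1.66, 3.76, 2.12, 2.99, 3.30, 3.86 and 3.60 log2 units. The 3 arteries with the largest plaques were above 4 of the 5 others, and the exception was medium replicate 1, at 0.448 mm2. The share of probes called by limma in these 8 arteries was 0.0%, with 2962 of 53877 at an unadjusted p under 0.05.

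**Figure D4:**
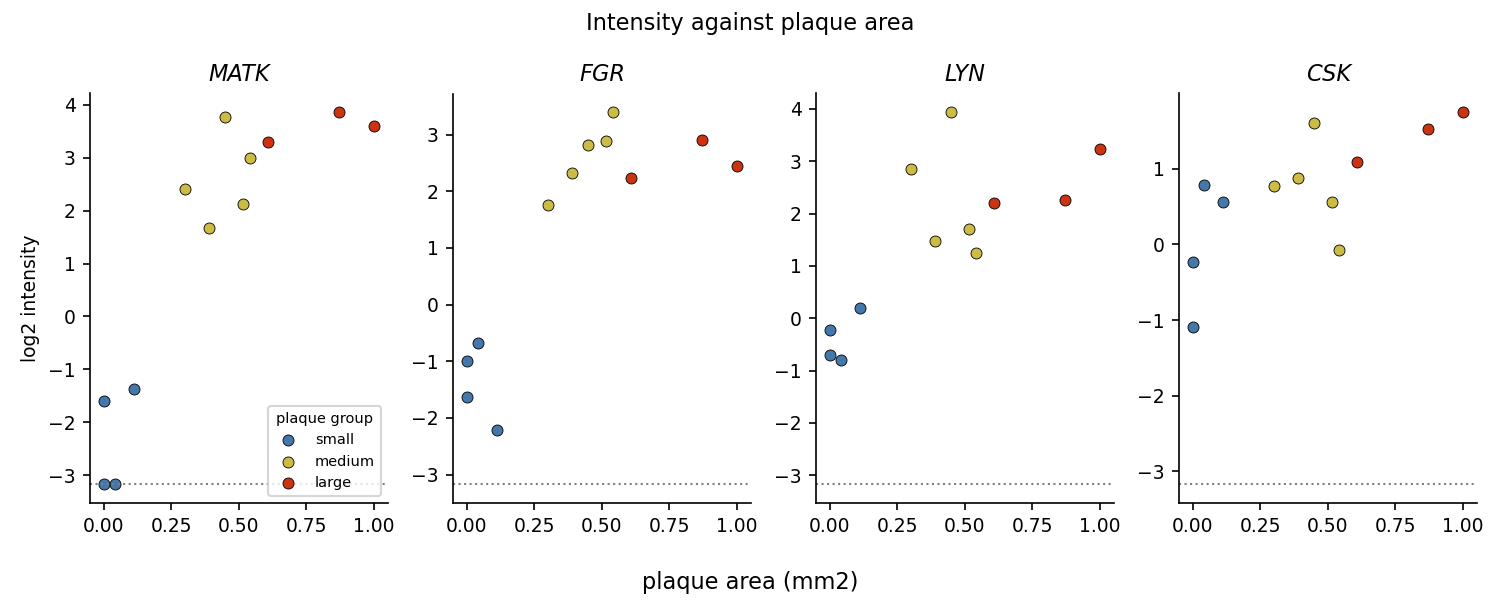
Log2 intensity of MATK, FGR, LYN and CSK against plaque area in mm2 for 12 arteries, coloured by plaque group, with the lowest intensity used as a dotted line. The points of MATK, FGR and LYN show a gap between the small group, up to 0.113 mm2, and the other 8 arteries, which begin at 0.30 mm2.

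The other genes of the pathway were taken from lists of kinases, regulators, substrates and receptors, of which 59 of 70 members were measured, each counted by its brightest probe. In large against small arteries 6 of the 59 rose and none fell, where 0.948% of all probes were called as higher. Of the 59 genes, 3 were called without large replicate 3. In medium against small arteries 7 of 59 rose and none fell, where 1.97% of all probes were called as higher. These shares include dim and unnamed probes, unlike the genes counted here. Among bright probes alone, a smaller set, 1056 were called higher in large and 1524 in medium arteries, against 511 and 1062 of all probes. The median difference over the 59 genes was 0.15 in large and 0.09 in medium arteries. Between large and medium arteries 0 of 59 passed by limma.

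Among the other Src family kinases, LCK of T cells, BLK of B cells, YES1, a ubiquitous relative of SRC, and FRK were measured. None of the 4 passed in either comparison. YES1 differed by 0.66 ± 0.39 in large and 0.24 ± 0.34 in medium arteries relative to small ones, and LCK by -0.14 ± 0.15 and 0.07 ± 0.13. BLK differed by -0.19 ± 0.28 and 0.12 ± 0.24. FRK differed by -0.47 ± 0.23 and -0.24 ± 0.20.

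SYK, the kinase that docks on receptors once Src family kinases have phosphorylated them, was the 1 of 6 measured Tec, Syk and FAK family kinases that rose. On the brighter of its probes it was higher by 2.22 ± 0.29 in large arteries (SE; limma adjusted p = 0.00426) and by 2.55 ± 0.25 in medium arteries (limma adjusted p = 0.000424) than in small ones. Its log2 intensity ran from 0.87 to 1.38 in large and from 0.83 to 2.05 in medium arteries, against -1.44 to -0.76 in small arteries. The dimmer probe of SYK differed by -0.38 and -0.14 and did not pass. ZAP70, the SYK relative of T cells, differed by 1.18 ± 0.32 and 1.03 ± 0.28 (limma adjusted p = 0.0961 and 0.0706).

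Among 19 measured regulators of Src family kinases, 3 rose in large arteries and 4 in medium arteries. PTPN6, the phosphatase SHP-1 of blood cells, was higher by 2.41 ± 0.32 in large and 2.84 ± 0.28 in medium arteries than in small ones. PTPRC, the phosphatase CD45 that removes the inhibitory tail phosphate which CSK adds, was higher by 3.33 ± 0.65 in large (limma adjusted p = 0.0336) and 3.66 ± 0.57 in medium arteries (limma adjusted p = 0.00556). Its first call was lost under 7 of 22 other settings, with adjusted p-values up to 0.167. They were log2(intensity + 1), where the difference was 1.45, the fit without the 2 animals named above, and those without large replicate 1 or 3 or small replicate 2, 3 or 4. Its dimmer probe did not pass, at -0.62 and -0.42. DOK2, an adaptor phosphorylated by these kinases in blood cells, was higher by 2.12 ± 0.30 in large and 1.50 ± 0.26 in medium arteries, the first call lost without large replicate 3 (adjusted p 0.0507) and the second under 2 of 21 other settings, among them without the 2 animals named above (adjusted p 0.061). SLA, the Src-like adaptor, rose in medium arteries by 1.72 ± 0.26 and differed by 1.03 ± 0.29 in large ones (limma adjusted p = 0.115), and its dimmer probe did not pass, at -0.67 in large and -0.01 in medium arteries. PAG1, the membrane anchor of CSK, differed by 0.14 ± 0.25 and -0.22 ± 0.22.

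Of 25 measured substrates and adaptors 2 rose in each comparison. LAT2, a membrane adaptor of myeloid and B cells, was higher by 3.38 ± 0.46 in large and 3.69 ± 0.41 in medium arteries than in small ones (limma adjusted p = 0.00552 and 0.000679). PLCG2, the phospholipase that BTK and SYK activate in blood cells, was higher by 2.04 ± 0.39 and 2.60 ± 0.34 (limma adjusted p = 0.0297 and 0.00217). The first call of PLCG2 was lost under 6 of 22 other settings, with adjusted p-values up to 0.153, among them without large replicate 1 or 3 or small replicate 2 or 3. GRB2, an adaptor that links activated receptors to Ras, was not called on its brightest probe, at -0.12 and -0.25, but was higher on both dimmer ones. These differed by 1.62 ± 0.26 and 1.36 ± 0.22 in large arteries (SE; limma adjusted p = 0.0121 and 0.0138) and by 1.72 ± 0.22 and 1.34 ± 0.20 in medium arteries (limma adjusted p = 0.00208 and 0.00393). Other substrates of broad expression that were not called included PXN at -0.72 and -0.39, BCAR1 at -0.87 and -1.07 and CTTN at -0.32 and -0.21.

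Of the receptors that MATK is known to bind in human cells, KIT differed by -0.02 ± 0.16 in large and 0.04 ± 0.14 in medium arteries relative to small ones, and ERBB2 by -0.60 ± 0.45 and -0.94 ± 0.40. The ligand of KIT, KITLG, differed by -1.10 ± 0.30 and -0.97 ± 0.27 on its brighter probe (limma adjusted p = 0.105 and 0.074). None of the 4 measured receptors and ligands passed.

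**Figure D5:**
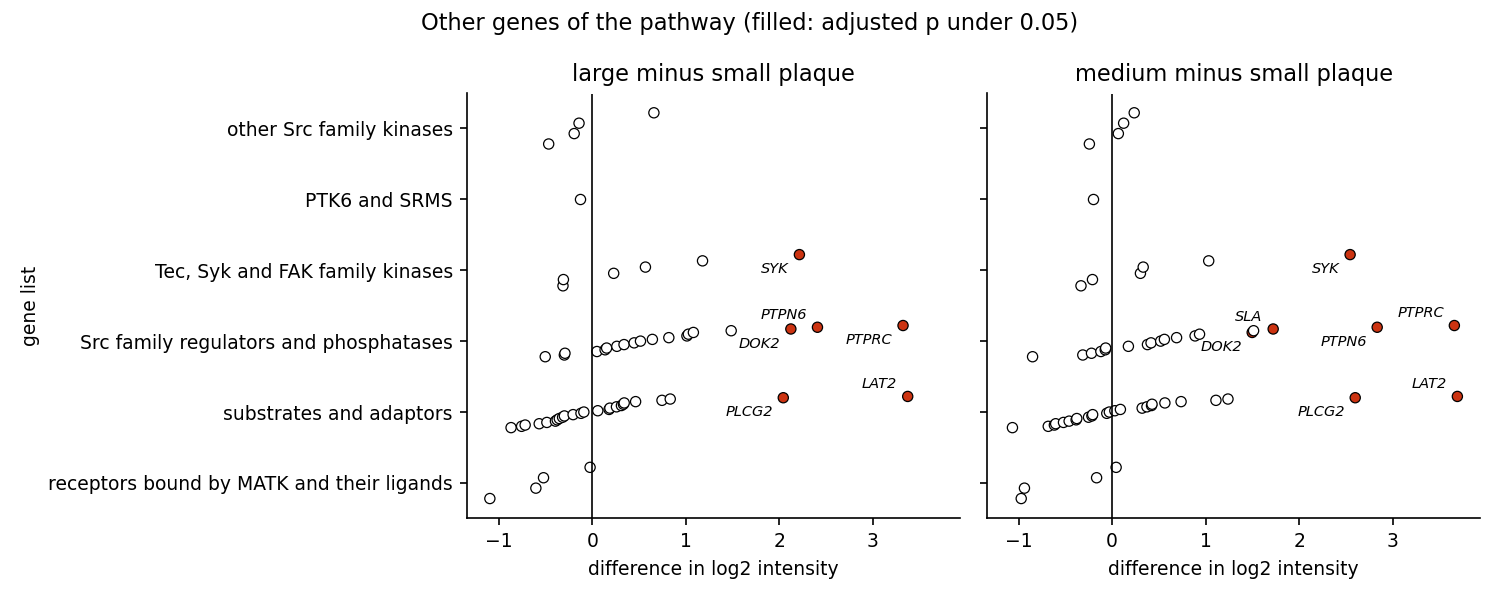
Difference in log2 intensity of the 59 measured pathway genes by list, for large minus small arteries (left) and medium minus small arteries (right); filled points have a limma adjusted p under 0.05. The called genes SYK, PTPRC, PTPN6, DOK2, LAT2 and PLCG2 all lie to the right of 0 in both comparisons, and SLA is called for medium.

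Markers of the cells that could carry these kinases were read in the same arteries. Against small arteries, 0.948% of all probes, dim and unnamed ones included, were called as higher in large and 1.97% in medium arteries. Of 12 measured macrophage markers, again by the brightest probe, 6 rose in large and 7 in medium arteries, with none lower. Among those called in both were CD163 (2.37 and 2.68 log2 units in large and medium arteries relative to small ones) and CD86 (3.18 and 3.22), and CD14, TYROBP, C1QA and LYZ, whose differences ran from 2.10 to 4.71. CSF1R differed by 1.72 in large arteries (limma adjusted p = 0.0695) and rose by 2.17 in medium ones, and its dimmer probe rose in both, by 2.58 and 2.90. MSR1 differed by 4.29 and 3.22 and CD68 by -0.66 and -0.44, and neither passed. Macrophages make FGR, LYN, SYK and the other called genes of blood cells, and the summed intensity of the macrophage list was 73.0 to 139.2 in small, 301.1 to 602.2 in medium and 316.8 to 478.4 in large arteries. It was highest in medium replicate 1, which also had the highest MATK, LYN and CSK of its group, but not the highest FGR. The sum was next highest in medium replicate 4, at 492.2, which had the highest FGR and the lowest LYN and CSK of that group. Its MATK, at 2.99, was also next highest. Medium replicates 5, 3 and 2 had sums of 486.3, 347.6 and 301.1, with MATK at 2.12, 1.66 and 2.40. In large replicates 3, 1 and 2 the sums were 478.4, 440.7 and 316.8, and MATK read 3.86, 3.60 and 3.30 in the same order. The part of macrophage content in the rise of MATK, FGR, LYN and the called pathway genes was not tested.

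Lists of the other cells held few called markers. By its brightest probe, no marker of T cells (10 measured), NK cells (9), B and plasma cells (8), neutrophils (6) or mast cells (4) passed in large or medium against small arteries. The same held for endothelium (9 measured), adventitial fibroblasts (6), adipocytes (4), red blood cells (2) and neurons with Schwann cells (8). Among dimmer probes of these lists, 1 of PECAM1 was higher in large and medium arteries, by 1.25 and 1.21 (limma adjusted p = 0.0486 and 0.0184), and 1 of the fibroblast gene DPT was lower in medium arteries, at -1.35 (limma adjusted p = 0.0253). CD3D of T cells differed by 1.12 and 1.53 (limma adjusted p = 0.25 and 0.0596), NCAM1 of NK cells by 1.02 and 1.27 and MS4A1 of B cells by 0.004 and 0.37. JCHAIN and MZB1, made by plasma cells, differed by 2.88 and 2.36 in large arteries (limma adjusted p = 0.0845 and 0.273) and by 1.90 and 2.52 in medium arteries (limma adjusted p = 0.148 and 0.152). The summed T cell intensity was 21.5 to 39.8 in small, 37.3 to 53.3 in medium and 27.5 to 46.1 in large arteries. The NK cell sums were 23.1 to 39.7 in small, 40.0 to 61.7 in medium and 34.2 to 54.6 in large arteries. For B and plasma cells the sums were 16.9 to 21.7, 21.2 to 38.9 and 23.6 to 75.9 in small, medium and large arteries. Of 10 megakaryocyte and platelet markers, relevant because megakaryocytes make MATK, none rose and GP1BB fell by 1.60 in medium arteries, as did the dimmer probe of GP9, by 0.62. The defining ITGA2B and PF4 were dim, with group means from -2.65 to -2.10, which a mismatch of the human probes could also give. The platelet sums were 13.3 to 29.8 in small, 20.8 to 42.9 in medium and 16.2 to 24.6 in large arteries. The defining markers of arterial tissue were present, MYH11 and ACTA2 of smooth muscle with group means from 8.17 to 9.25 and PECAM1 of endothelium with 4.55 to 4.65. Among 8 contractile smooth muscle markers MYLK fell by 1.48 in large arteries, and MYLK and SMTN fell by 1.61 and 2.39 in medium ones, and the list's sum was 852.5 to 1728.7 in medium and 1096.7 to 1936.4 in large arteries, against 2076.9 to 2952.7 in small ones.

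The genes whose pattern was most like that of MATK were sought among probes with a single symbol, values on every array and at most 4 values at the lowest intensity used. Likeness was measured by Pearson's r of log2 intensity over the 12 arteries, which includes the gap between the small group and the other 8. The 6 highest were LGALS3, FGGY, CYTH1, C5orf24, CTSK and CD36, with r from 0.96 to 0.98. LGALS3 encodes galectin-3, a sugar-binding protein of macrophages, CTSK the lysosomal protease cathepsin K and CD36 a scavenger receptor for oxidized lipoproteins. The 3 lowest were NUTM1, FBXO3 and TMEM248, with r from -0.97 to -0.95. LYN and FGR both had r = 0.90, at ranks 198 and 212 of 22720 probes, and CSK had 0.63 at rank 2317.

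Once each group's mean was removed, r with MATK over the 12 arteries was highest among the relatives for the dim BTK probe, at 0.71 (rank 305 of 22720). It was 0.50 for LYN (rank 2138), -0.21 for FGR and 0.01 for CSK. The other SRC, FYN and BTK probes ran from -0.44, for SRC and FYN, to 0.14. Of the 6 most alike genes, CD36 kept 0.89 and CTSK 0.80, and the other 4 had 0.67 to 0.75. The highest values within groups were those of MS4A13 and MCCC2 at 0.96, KCTD4 at 0.94 and BTD at 0.91. The first 3 of these were dim on the probe used, with no artery above -0.48 log2 units, whereas BTD, biotinidase, ran from 0.57 to 1.40. In small arteries MATK was low, with 2 of 4 values set to the lowest intensity used. Part of the likeness within groups therefore rests on values at or near that limit. These correlations describe 12 arteries and carry no test.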

How the data were processed

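Per the labels' protocols, biotinylated cRNA was made from each artery and hybridized to a CodeLink human array in 1 colour. The authors deposited an intensity per probe on a linear scale, with array medians of 1.00 to 1.01. How background and scale were set is not given here. Of 54359 probes, 53877 had values in at least 2 arteries per group. Intensities under the 5th percentile of positive values, 0.111, were set to it (5.45% of values) before taking log2, with no further normalization. The deposited platform annotation gave 23267 tested probes 1 symbol, 900 several and 29710 none. limma version 3.58.1 in R version 4.3.3 fitted 3 group means over 12 arrays, and slopes on plaque area over 12 and over 8 arrays, with eBayes. P-values are two-sided, Benjamini-Hochberg adjusted over all probes, with a threshold of 0.05. The fits were tested on simulated data with planted differences larger than most of those reported here. They recovered 96.5% to 100% of the changed probes. False calls made up 2.03% to 7.98% of calls, in some fits more than the threshold. Smaller differences were not simulated. Precision is limited by the 12 arrays.

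The kinases, the pathway and marker lists, the alternatives and the rule for naming genes were chosen with earlier results of these data known. Named were all probes of the 7 kinases, up to 6 called genes per pathway list, further pathway genes fixed by name, the first measured and the called markers of the main lists and the genes most like MATK by Pearson's r. ZAP70, PXN, BCAR1, CTTN, KITLG, GRB2, CD68, JCHAIN, MZB1, DPT and GP9 fall outside that rule and were named after their values were seen. A gene outside the 7 was represented by its brightest complete probe.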

Additional observations from a re-analysis of the deposited data

How the results depend on the processing

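The calls of FGR kept their direction and side of the threshold in large and medium against small arteries under all 22 alternatives, and no called difference reversed. The count of called relatives of MATK, 2 in each comparison, was 1 (FGR) for large against small with log2(intensity + 1) and without the 2 animals whose identity numbers lie apart, and 1 to 2 with each replicate left out. For medium against small it was 1 without those 2 animals and 1 to 2 with each replicate left out. For the slope on area it was 0, against 1 with log2(intensity + 1), 2 among bright probes, 1 with a trended robust variance, 3 with the square root of area, and 0 to 2 with each replicate left out.

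Over all probes, 617 were called in large against small arteries, 1532 of bright probes, 1161 with a trended variance, 1254 with array weights, 379 with only the groups compared, 316 without the 2 animals, and 112 to 1216 with each replicate left out. In medium against small 1693 were called, 2661 of bright probes, 866 with the replicate number as a block, 773 without the 2 animals, and 847 to 1567 with each replicate left out. In large against medium 0 were called, 1 after quantile normalization, 3 with array weights, 4 with only the groups compared, and 0 to 3 with each replicate left out. On area 314 were called, 174 with a lower floor, 605 with log2(intensity + 1), 1231 of bright probes, 777 with a trended variance, 1586 with the square root, 0 with the replicate block, 0 without the 2 animals, and 0 to 746 with each replicate left out. Pathway genes called numbered 6 in large against small, 3 to 7 with each replicate left out (3 without large replicate 3). In medium against small they numbered 7, 12 among bright probes and 14 with a trended variance. DOK2 in medium against small had an adjusted p of 0.0652 with the replicate block. The cause of these shifts was not tested. Same-numbered arteries deviated together with r over 0.1 in 4 of 10 pairs (median r 0.08), and differently numbered ones in 3 of 37 (median r -0.02). The main fits had no replicate block because replicates are separate animals. Whether the replicate number marks something that arteries share was not tested.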

Other observations

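Small replicate 3 had the highest value of the 12 arteries on 5 of the 8 SRC, FYN and BTK probes, and all 5 were among the 6 probes annotated without a curated mRNA. Over all probes with complete values this artery was the highest on 20.7%. The share among all probes annotated without a curated mRNA was not computed, so a tie to such probes was not tested. Without small replicate 3 the differences of large and medium from small arteries on the brighter BTK probe were -0.20 and -0.08, and on the second FYN probe -0.23 and -0.19. Both probes were highest in small replicate 3, so leaving it out had to raise these differences. On the dimmer BTK probe, highest in small replicate 2, the differences without small replicate 3 were -0.60 and 0.07, against -0.50 and 0.17 with it.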
